A study of Homo sapiens with 8 samples.

Results

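The question was whether knockdown of TAF7 changed the transcriptome of a metastatic breast cancer line in the same way as that of its parent. The quantity described is an interaction over the 8 columns of the count table, that is all 8 samples of the series: the log2 change between shTAF7 and control in MDA231-LM2 minus the same change in MDA-MB-231. MDA-MB-231, called parental below, is a triple-negative, mesenchymal breast cancer cell line, and MDA231-LM2 (LM2 below) was selected from it for growth in the lung. The 4 groups were MDA-MB-231 with a control hairpin (genotype WT in the labels), MDA-MB-231 with the TAF7 short hairpin RNA numbered 3 (genotype TAF7 knockdown), LM2 with the control hairpin and LM2 with the same TAF7 hairpin, each with 2 libraries numbered 2 and 3. All cells were grown in 1 kind of medium, and the labels name no added stimulus. A single hairpin was used against TAF7, and the labels name neither clones, selection nor separate cultures, so the spread behind every p-value is that between these libraries and may be technical.

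TAF7 belongs to TFIID, the multisubunit factor that binds core promoters and helps to place RNA polymerase II there. TAF7 binds TAF1 within TFIID and is known to restrain it until the preinitiation complex is complete, and it also contacts other kinases of the early transcription machinery. NF-kB is a family of DNA-binding dimers that are held in the cytoplasm by IkB proteins and, once freed, switch on cytokine genes together with their own inhibitors. MDA-MB-231 cells are known for constitutive NF-kB activity.

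Library totals lay between 17217776 and 20292291 counts, at which 1 read corresponded to 0.0488 to 0.0583 CPM (counts scaled to library totals and TMM factors). Enough reads for a test were found in 15923 of 61552 genes. The LM2 control libraries had reads in 24490 and 24762 genes, against 22296 to 23434 in the other 6, and mitochondrially encoded genes took 3.39% to 5.95% of the counts. The TMM factors were 1.03 and 1.04 in the LM2 control and 0.960 and 0.935 in LM2 shTAF7. Among markers of the labelled cell type, the FPKM of VIM, CD44, AXL, SPARC and CAV1 summed to 585 to 825 in every library. PGR was listed at 0 in all and ESR1 at no more than 0.02, while ERBB2 (HER2) had 5.18 to 6.77. Of the epithelial markers, KRT8 had 47.8 to 77.9, KRT18 84.8 to 113, EPCAM 2.22 to 4.27 and CDH1 no more than 0.03. The summed FPKM of 12 leukocyte markers was 1.49 to 1.75 in both MDA-MB-231 groups, 3.41 to 3.95 in the LM2 control and 2.97 to 3.08 in LM2 shTAF7. The summed FPKM of 12 endothelial and fibroblast markers was 1.72 to 2.08 in MDA-MB-231, 4.86 to 5.63 in the LM2 control and 2.57 to 2.81 in LM2 shTAF7, with COL1A1 and KDR as its largest parts in LM2. What these marker levels contribute to the results below was not tested.

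TAF7 (ENSG00000178913) was lower in each shTAF7 library than in each control library of its line, but to a different depth. It was measured at 179 and 185 CPM in the parental control, 108 and 105 in MDA-MB-231 shTAF7, 195 and 197 in the LM2 control and 142 and 148 in LM2 shTAF7. The groups did not overlap within a line, and 58.5% of the control level was left in MDA-MB-231 against 74.2% in LM2. The interaction for TAF7 itself was 0.34 ± 0.095 (log2 ± approximate SE, edgeR adjusted p = 0.00544), and its call was lost when MDA-MB-231 control replicate 3 was left out. The line differences below were thus measured at unequal knockdown, and the part that this plays in them was not tested.

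The response to knockdown differed between the lines for a large part of the measured transcriptome, and most of the wide differences were changes lower in LM2. By edgeR's quasi-likelihood test, at a false discovery rate of 5% (Benjamini-Hochberg), an interaction was called for 4113 of 15923 genes (25.8%). It was above 0 (a change higher in LM2) for 2221 genes (13.9%) and below 0 (lower in LM2) for 1892 genes (11.9%). The 2 directions differed in size. Among called genes with an interaction of at least 1 on the log2 scale, 104 were higher in LM2 and 709 lower, and at a size of at least 2 the counts were 24 and 276. When the test required an interaction beyond 1, it called 6 higher and 110 lower genes. The many small positive interactions moved with the scaling of the libraries. The same edgeR fit without TMM factors, run after the data were seen, shifted the median interaction of all genes to -0.12 and called 1297 higher and 2674 lower genes, so 32.7% of calls were higher against 54.0% with TMM. RLE factors, another such scaling, gave 55.9%. limma on the authors' FPKM values, which changes the test and the scale as well, called 998 higher and 2096 lower genes (32.3% higher). Of the 4113 genes, 4072 (99.0%) had the same sign in all 16 ways of taking 1 library per group, against 48.7% of all tested genes. These combinations reuse the libraries that gave the calls, so this agreement follows largely from the selection and is no separate support. A large part of the calls did not hold in every fit that left out 1 library, which leaves a single library in its group.

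**Figure D1:**
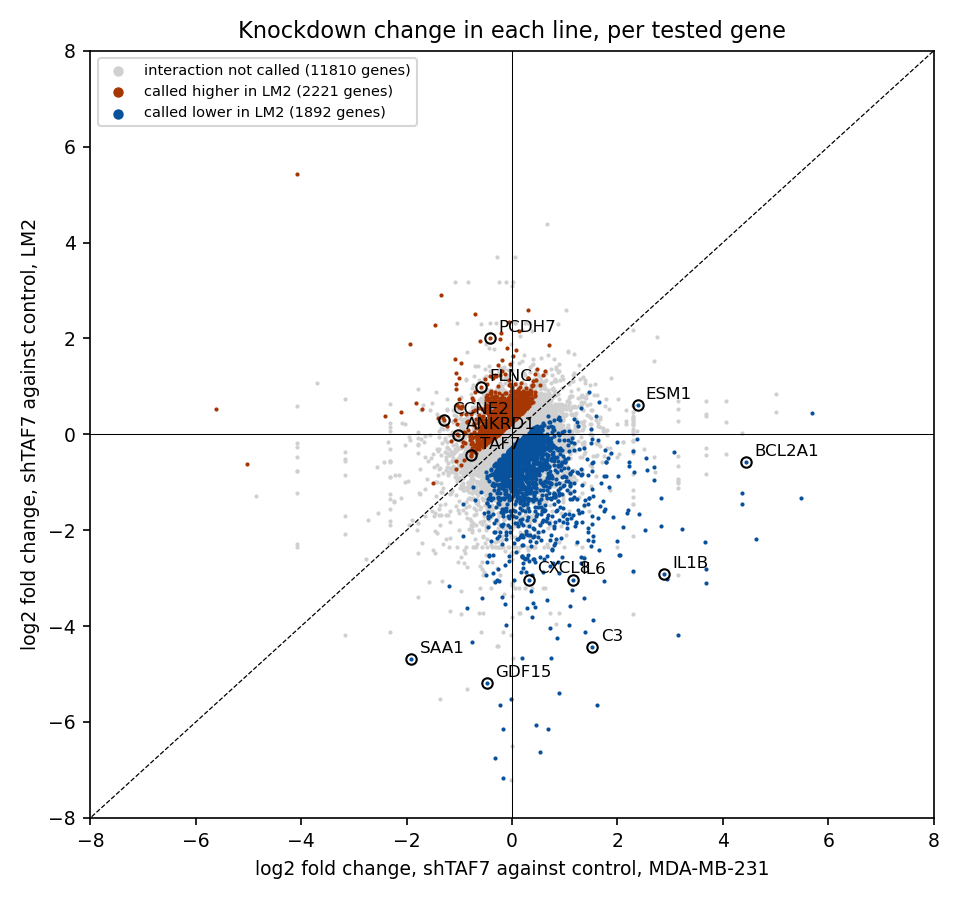
Log2 fold change with the TAF7 hairpin in MDA-MB-231 (x axis) and in LM2 (y axis) for each of 15923 tested genes; colours mark the 2221 genes called higher and the 1892 called lower in LM2, and the dashed line marks equal change. Most wide departures from the line lie below it, where IL1B, C3, IL6 and GDF15 fell in LM2.

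The 2 changes that make up the interaction were counted separately. In MDA-MB-231, 4070 genes (25.6%) were called with the TAF7 hairpin, 2013 raised (12.6%) and 2057 lowered (12.9%). In LM2, where less TAF7 was lost, 6570 genes (41.3%) were called, 3478 raised (21.8%) and 3092 lowered (19.4%). Among genes with a called interaction, the change was called only in LM2 for 2207, of which 1148 rose and 1059 fell. It was called only in MDA-MB-231 for 839, of which 306 rose and 533 fell. A further 618 crossed: 305 rose in MDA-MB-231 and fell in LM2, and 313 fell in MDA-MB-231 and rose in LM2. The first of these crossed classes had a median absolute interaction of 1.14 and the second of 0.62. The remaining genes changed in the same direction in both lines by different amounts (122 up and 118 down) or were called in neither line alone (209). Most of the 305 and 313 crossed genes kept a called interaction in every fit that left out 1 library, and the 209 called in neither line did not. This contrast is in part built into the classes, since crossed genes need 2 opposite calls, and is no separate support for them. The classes themselves were less steady, since they also need a call in each line: leaving out 1 library left 149 to 278 genes in the first crossed class and 141 to 399 in the second, with the lowest counts without MDA-MB-231 control replicate 2.

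**Figure D2:**
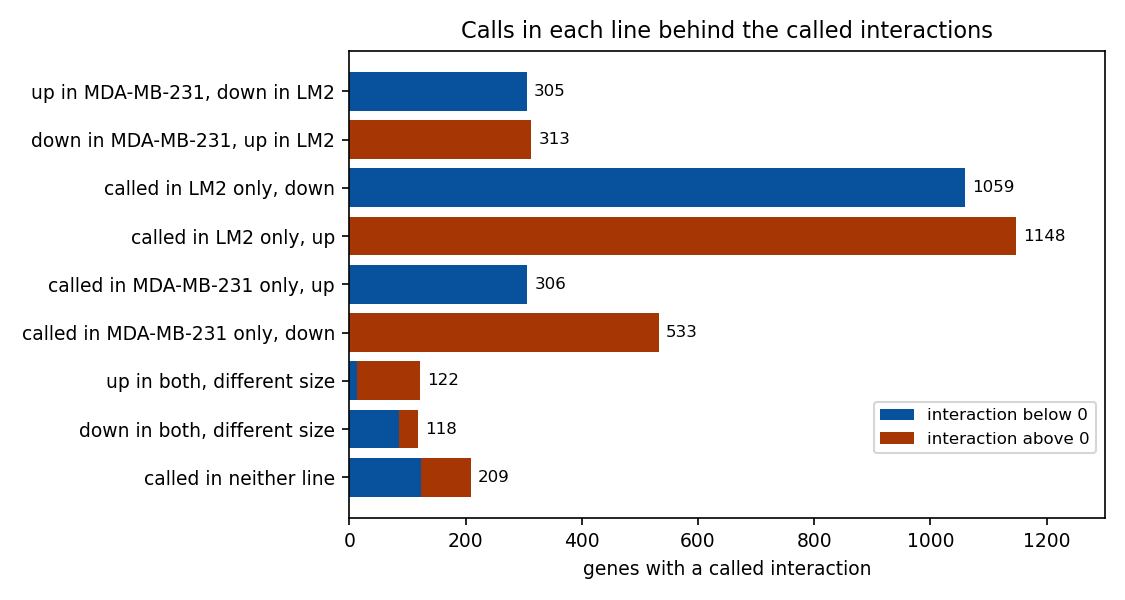
Number of genes with a called interaction (x axis) by the calls in each line (y axis), with the sign of the interaction in colour. The bars for genes called in LM2 only, 1059 down and 1148 up, are the longest, and 305 and 313 genes moved in opposite directions.

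Among genes with a mean of at least 5 CPM whose call held in all 8 fits without a library and whose sign held in all 16 combinations, the 8 most positive interactions were those of PCDH7, APLN, NR4A1, TOX, REEP1, CCNE2, FLNC and TTC9. PCDH7 (ENSG00000169851), a protocadherin linked to metastatic growth, had 11.2 and 11.2 CPM in the parental control, 8.34 and 8.49 with shTAF7, 3.14 and 3.18 in the LM2 control and 13.1 and 12.3 in LM2 shTAF7. It was lowest in the LM2 control and rose there above the parental level, while it fell in MDA-MB-231. Its interaction was 2.42 ± 0.22 (edgeR adjusted p = 2.93e-12). FLNC (ENSG00000128591), an actin crosslinker, had 122 and 121 CPM in the parental control, 91.4 and 70.4 with shTAF7, 153 and 193 in the LM2 control and 342 and 341 in LM2 shTAF7. It too moved in opposite directions (-0.59 ± 0.087 in MDA-MB-231 and 0.98 ± 0.082 in LM2), with no overlap between hairpins in either line. PCDH7 and FLNC were among the 6 higher genes that passed the test against a size of 1. CCNE2, a cyclin of S-phase entry, fell from 17.6 and 17.6 to 7.93 and 6.49 CPM in MDA-MB-231 and had 11.3 and 12.9 CPM in the LM2 control and 17.2 and 12.5 in LM2 shTAF7, where the groups overlapped. TOX, a nuclear HMG-box factor, fell in MDA-MB-231 (-0.51 ± 0.17) and rose in LM2 (1.16 ± 0.16). APLN, the ligand of the apelin receptor, was called only in LM2, where it rose from 5.56 and 4.90 to 14.8 and 13.8 CPM. NR4A1, an orphan nuclear receptor and early response gene, likewise rose only in LM2, from 3.41 and 3.90 to 13.4 and 11.2 CPM. The interactions of REEP1 and TTC9 were 1.64 ± 0.28 and 1.57 ± 0.30.

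The 8 most negative interactions under the same limits were larger, and several belonged to secreted inflammatory proteins: C3, IL1B, BCL2A1, IL24, GDF15, IL6, VAMP8 and IGFN1. IL1B (ENSG00000125538), the cytokine interleukin-1 beta, had 4.99 and 4.98 CPM in the parental control and 36.9 and 36.7 with shTAF7, a 7.38-fold rise. In LM2 it had 1088 and 1040.1 CPM in the control and 139 and 141 with shTAF7, which left 13.2% of the control level. The hairpin thus moved the 2 lines toward each other, and the interaction was -5.81 ± 0.13 (edgeR adjusted p = 5.25e-36). BCL2A1, an NF-kB-driven survival protein of the BCL2 family, moved mainly in the parental line, from 0.208 and 0.280 to 5.36 and 5.37 CPM, and fell in LM2 from 34.9 and 29.9 to 21.7 and 21.5 CPM. C3, the central complement component, fell in LM2 from 109 and 123 to 5.41 and 5.23 CPM, and in MDA-MB-231 it had 0.208 and 0.112 CPM in the control and 0.350 and 0.585 with shTAF7, which was not called (adjusted p = 0.0578). GDF15, a stress-induced cytokine of the TGF-beta superfamily, fell in both lines, from 15.8 and 16.3 to 11.7 and 11.3 CPM in MDA-MB-231 and from 35.8 and 37.7 to 0.614 and 1.37 CPM in LM2. IGFN1 fell in LM2 from 26.6 and 26.6 to 2.18 and 2.22 CPM and was not called in MDA-MB-231. For VAMP8, a SNARE protein of vesicle fusion, the LM2 values rested on 17 counts in the control and 1 with shTAF7, a ratio of 17.3 (95% interval 2.72 to 725, counting error only).

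**Figure D3:**
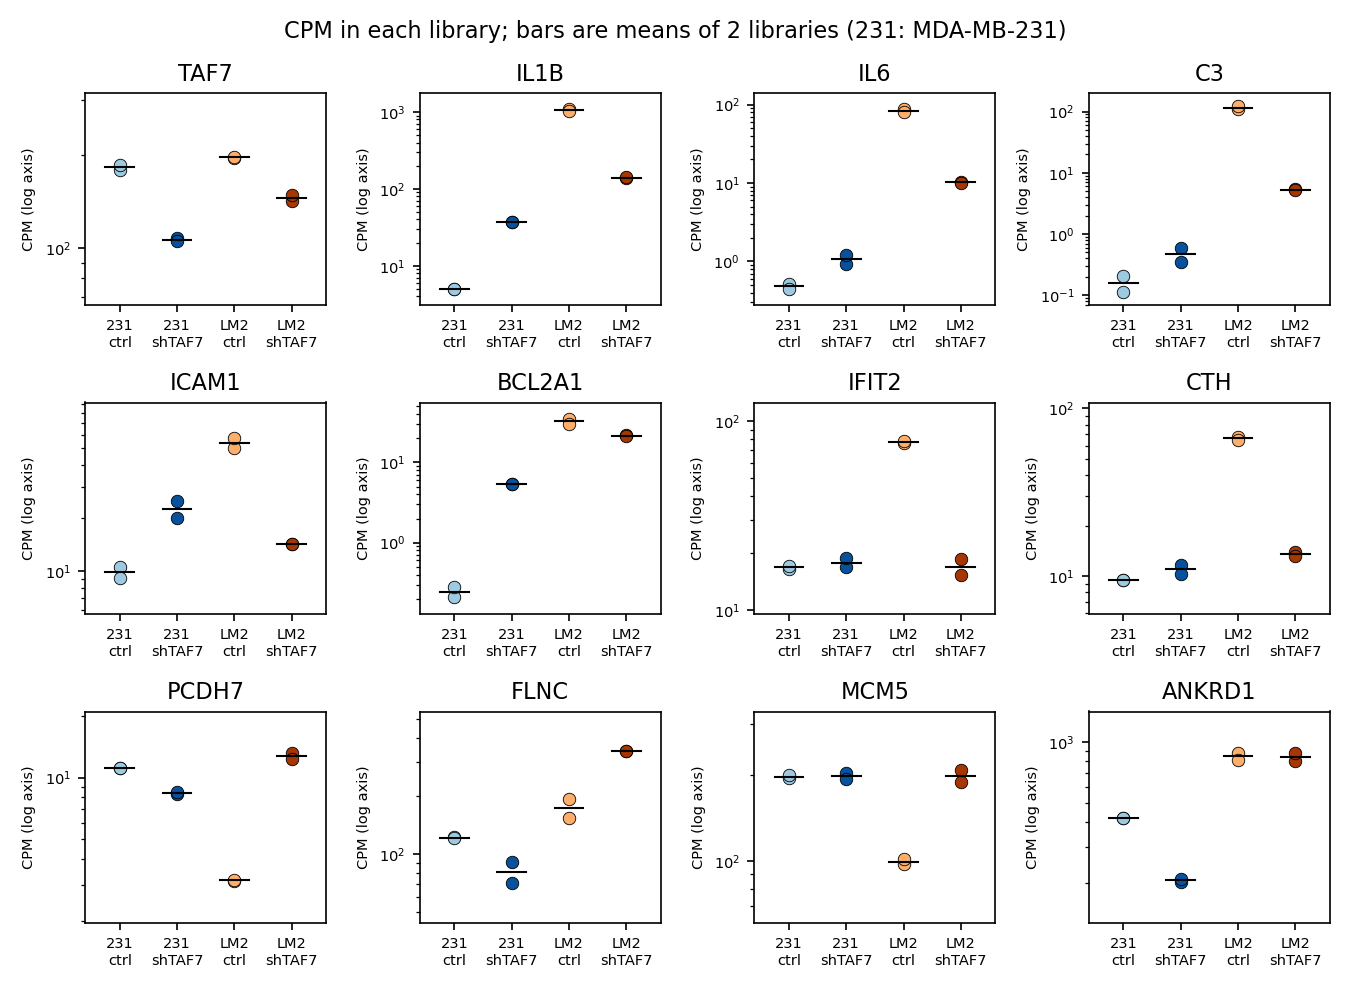
CPM on a log axis in each of the 8 libraries for 12 genes, with bars at the mean of 2 libraries. IL1B, ICAM1 and BCL2A1 rose in MDA-MB-231 and fell in LM2, IFIT2 and CTH fell only in LM2, PCDH7 and FLNC fell in MDA-MB-231 and rose in LM2, and ANKRD1 fell only in MDA-MB-231.

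The cytokine and chemokine targets of NF-kB were lower with knockdown in LM2 and in part higher in MDA-MB-231. Of 23 listed genes 16 could be tested, and all 16 had a called negative interaction (background 11.9%), with a median of -3.15. In MDA-MB-231 11 of the 16 rose and none fell, and in LM2 all 16 fell. The medians of the change were 0.69 and -2.65, against 0.0081 and -0.016 over all tested genes. All 16 kept their call in each fit that left out 1 library and under each other fit apart from the minimum-size test. IL6 (ENSG00000136244), the ligand of the gp130 pathway, had 0.520 and 0.448 CPM in the parental control and 0.933 and 1.22 with shTAF7, and 86.7 and 80.6 CPM in the LM2 control and 10.2 and 10.1 with shTAF7. Its rise in MDA-MB-231 was called but started from 10 and 8 counts, and its level there stayed below both LM2 groups. IL1A fell in LM2 from 6.77 and 6.85 to 0.391 and 0.528 CPM, below the MDA-MB-231 libraries, where it rose from 1.35 and 1.73 to 5.02 and 3.9999 CPM. CXCL8, the neutrophil chemokine interleukin-8, was abundant in both lines and rose from 130.036 and 134 to 163 and 165 CPM in MDA-MB-231 while falling from 679.8 and 610.3 to 79.5 and 78.5 CPM in LM2, so that the order of the lines turned. The interactions of IL24 and TNFSF15 were -4.80 ± 0.62 and -4.68 ± 0.56. CSF2, the growth factor GM-CSF, was called only in LM2, where it fell from 40.3 and 40.1 to 5.30 and 7.08 CPM (12.2 and 14.04 and 15.5 and 14.98 CPM in the 2 MDA-MB-231 groups). LIF was the least affected of the list, at -1.16 ± 0.10.

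The regulators of the NF-kB pathway moved in the same direction by smaller amounts, and not all of them. Of 19 subunits, feedback inhibitors and adaptors, 15 had a negative interaction (78.9%, background 11.9%) and none a positive, with a median of -1.04. The DNA-binding subunits split: RELA was not called (0.069 ± 0.11, adjusted p = 0.687), nor were NFKB1 (-0.28 ± 0.11, adjusted p = 0.0572) and REL (0.51 ± 0.28, adjusted p = 0.183), whereas RELB (-1.47 ± 0.14) and NFKB2 (-1.33 ± 0.10) of the noncanonical branch were. RELB rose from 19.5 and 18.5 to 23.03 and 22.8 CPM in MDA-MB-231 and fell from 46.95 and 42.6 to 19.3 and 19.7 CPM in LM2. TNFAIP3 (A20), a ubiquitin-editing inhibitor, had 12.8 and 16.4 CPM in the parental control, 19.3 and 17.2 with shTAF7, 73.5 and 87.3 in the LM2 control and 27.9 and 25.4 in LM2 shTAF7. ICAM1, an adhesion receptor for leukocytes, rose from 10.6 and 9.12 to 25.1 and 19.95 CPM in MDA-MB-231 and fell from 49.98 and 57.1 to 14.2 and 14.2 CPM in LM2. With the TAF7 hairpin LM2 thus lay below MDA-MB-231, but still above the parental control. TRAF1 and IRAK2, adaptors of TNF and interleukin-1 receptors, fell only in LM2, with interactions of -2.58 ± 0.25 and -1.55 ± 0.16.

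Promoter sequences are shown for genes of these lists that hold the kB consensus, because the members that crossed and the subunits without a call both hold it. RefSeq windows from 250 bases before to 50 after the start (GRCh38.p14) were found for 12 of the 16 tested cytokines and 16 of the 19 regulators. A match to the kB consensus on either strand lay in 6 of the 12 and 6 of the 16, against 11.3% of 35116 RefSeq promoters. It also lay in 1 of 9 complement promoters, 5 of 27 of interferon-stimulated genes and 3 of 23 of ATF4 targets, and, among lists with positive interactions, in 6 of 21 of cholesterol synthesis and 7 of 34 of replication. The capitals mark the match, and each line runs 5′ to 3′ on the strand of the gene.
IL6 (chr7:22727107-22727156, plus strand): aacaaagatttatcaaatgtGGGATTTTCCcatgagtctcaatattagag
CXCL1 (chr4:73869295-73869344, plus strand): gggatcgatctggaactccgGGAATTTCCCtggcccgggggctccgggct
CXCL2 (chr4:74099243-74099292, minus strand): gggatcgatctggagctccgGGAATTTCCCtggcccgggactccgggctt
CXCL3 (chr4:74038738-74038787, minus strand): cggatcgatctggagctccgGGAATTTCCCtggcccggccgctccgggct
CCL20 (chr2:227813743-227813792, plus strand): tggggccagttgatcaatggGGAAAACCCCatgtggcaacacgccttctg
TNFAIP3 (chr6:137867184-137867233, plus strand): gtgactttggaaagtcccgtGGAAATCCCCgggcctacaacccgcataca
NFKB1 (chr4:102501290-102501339, plus strand): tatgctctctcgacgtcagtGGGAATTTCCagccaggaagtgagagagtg
REL (chr2:60881508-60881557, plus strand): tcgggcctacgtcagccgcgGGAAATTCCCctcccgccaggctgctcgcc
CXCL1, CXCL2 and CXCL3, neighbouring chemokine genes on chromosome 4, shared the letters of the match and had interactions of -3.002 ± 0.16, -3.10 ± 0.18 and -2.93 ± 0.21. CCL20 (-4.38 ± 0.41) and IL6 (-4.19 ± 0.39) held other forms of it, as did TNFAIP3 (-1.91 ± 0.15). NFKB1 and REL held matches as well and were not called. A match to the letters describes the window and not binding, and none was measured here. NFKBIA, which encodes the inhibitor IkB-alpha, and BIRC3 also held matches and fell only in LM2, with changes of -0.81 ± 0.090 and -1.22 ± 0.074.

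Genes of complement and the acute phase were lower with knockdown in LM2. Of 22 listed genes 14 were tested, 9 had a negative interaction (64.3%, background 11.9%) and none a positive, and the median was -1.63 (0.27 in MDA-MB-231 and -1.26 in LM2). With limma on FPKM the median was -0.87 with 10 negative calls. SAA1, an acute-phase apolipoprotein, fell in both lines, from 5.10 and 4.53 to 1.28 and 1.27 CPM in MDA-MB-231 and from 65.3 and 62.97 to 2.29 and 2.64 CPM in LM2, where only the size differed (-2.78 ± 0.31). Reads of SAA1 can be shared with its near copy SAA2. PTGS2, the inducible cyclooxygenase, fell in LM2 from 269.6 and 249 to 80.7 and 76.6 CPM and rose slightly in MDA-MB-231 from 13.7 and 12.9 to 17.6 and 15.1 CPM. C1S, a protease of the classical pathway, fell in LM2 only, from 7.27 and 7.24 to 0.949 and 1.32 CPM. The membrane regulators CD46, CD55 and CD59 had no called interaction.

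Interferon-stimulated genes were also lower in LM2, with 24 of 36 tested members called negative (66.7%, background 11.9%), none positive, and a median of -0.99 (0.27 in MDA-MB-231 and -0.70 in LM2). In MDA-MB-231 15 rose and 1 fell, in LM2 25 fell and 1 rose, and 11 crossed. On the FPKM scale with a pseudocount of 1 the median was -0.51 with 22 negative calls; this scale understates changes of low genes. IFIT2 (ENSG00000119922), an RNA-binding antiviral protein, had 16.5 and 17.1 CPM in the parental control, 16.9 and 18.7 with shTAF7, 76.3 and 78.3 in the LM2 control and 18.6 and 15.3 in LM2 shTAF7. It stood out in the LM2 control alone, and the other 6 libraries overlapped. IFIH1, the RNA sensor MDA5, crossed: it rose from 6.86 and 6.10 to 11.3 and 11.6 CPM in MDA-MB-231 and fell from 14.5 and 16.3 to 6.08 and 6.71 CPM in LM2. OASL, a 2′-5′ oligoadenylate synthetase-like protein, rose by 0.56 ± 0.15 in MDA-MB-231 and fell, at -1.60 ± 0.13, in LM2. Among the signalling components, STAT2 (-0.87 ± 0.11) and IRF1 (-0.82 ± 0.17) had negative interactions, whereas IRF7 was near 0 (-0.11 ± 0.19, edgeR adjusted p = 0.731). IRF9 was not called either (edgeR adjusted p = 0.418), but its value was like those of STAT2 and IRF1 with a wide error (-0.83 ± 0.69).

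The interferon-stimulated response element, searched as GAAANNGAA on both strands, was found in 18 of the 27 RefSeq promoters matched to this list, against 8.11% of all. The windows of 4 called members and of IFIT5, which was not called (-0.082 ± 0.11, adjusted p = 0.628), are shown with the match in capitals, since similar letters stand before genes with and without a call.
IFIT1 (chr10:89392501-89392549, plus strand): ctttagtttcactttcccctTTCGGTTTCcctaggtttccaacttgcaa
IFIT3 (chr10:89327856-89327904, plus strand): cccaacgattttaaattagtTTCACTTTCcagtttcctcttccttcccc
IFIH1 (chr2:162318808-162318856, minus strand): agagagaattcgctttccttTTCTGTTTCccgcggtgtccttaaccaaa
ISG15 (chr1:1013376-1013424, plus strand): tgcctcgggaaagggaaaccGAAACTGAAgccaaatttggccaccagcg
IFIT5 (chr10:89414504-89414552, plus strand): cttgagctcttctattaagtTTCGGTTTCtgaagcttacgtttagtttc
IFIT1 and IFIT5, neighbours on chromosome 10, carried the same 9 letters. IFIT1 fell in LM2 (-1.07 ± 0.093) and rose in MDA-MB-231 (0.41 ± 0.10), while IFIT5 rose in both lines (0.18 ± 0.075 and 0.27 ± 0.076). IFIT3 and ISG15 had interactions of -1.32 ± 0.12 and -1.15 ± 0.13.

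Antigen presentation by MHC class I went with them. Of 20 tested genes 14 had a negative interaction (70%, background 11.9%) and 1 a positive, and the median was -0.51, although only 8 were called in every fit that left out a library, and 8 and 9 were called negative without MDA-MB-231 control replicate 2 and shTAF7 replicate 2. PSMB9, an immunoproteasome subunit, rose from 4.003 and 3.86 to 7.76 and 7.76 CPM in MDA-MB-231 and fell from 11.2 and 11.98 to 5.92 and 6.65 CPM in LM2. HLA-B fell only in LM2, from 91.9 and 91.8 to 35.3 and 42.1 CPM (40.3 and 41.2 and 42.6 and 44.7 CPM in the 2 MDA-MB-231 groups), and HLA-C had an interaction of -1.04 ± 0.11. HLA genes are close copies of each other, so the split of reads between them is uncertain.

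Targets of ATF4, the transcription factor of the integrated stress and amino acid responses, were lower in LM2, though ATF4 itself was not. Of 29 tested genes 21 had a negative (72.4%, background 11.9%) and 3 a positive interaction, with a median of -0.78 (-0.087 in MDA-MB-231 and -0.90 in LM2). ATF4 mRNA had 510.3 and 516 CPM in the parental control and 467 and 484 with shTAF7, and it rose in LM2 from 484 and 453 to 548 and 604 CPM. ATF4 is known to be set mainly by translation, which was not measured. CTH, an enzyme that makes cysteine from cystathionine, had 9.51 and 9.51 CPM in the parental control and 11.6 and 10.3 with shTAF7, and fell in LM2 from 67.9 and 65.3 to 13.9 and 13.1 CPM, which is still above the 4 parental libraries. VEGFA, the angiogenic growth factor, and DDIT4, an inhibitor of mTORC1, crossed. VEGFA rose from 126 and 131 to 147 and 147 CPM in MDA-MB-231 and fell from 339.952 and 338 to 101 and 97.3 CPM in LM2, and the interaction of DDIT4 was -1.39 ± 0.097. The 3 positive members were ATF4, its relative ATF5 (0.59 ± 0.16) and SLC7A11, the last called in 3 of 8 fits without a library.

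Cytosolic tRNA synthetases were called above the share of all genes in both directions. Of 16 tested, 5 were higher (31.25%, background 13.9%) and 5 lower (31.25%, background 11.9%). Among all genes with a mean above 41.8 CPM, as CARS1, AARS1, RARS1 and WARS1 have, 29.2% were called higher and 10.2% lower. The higher share is thus near that of abundant genes. CARS1 (-0.78 ± 0.095), AARS1 (-0.71 ± 0.098) and WARS1 (-0.52 ± 0.099), for cysteine, alanine and tryptophan, were lower in LM2, and RARS1, for arginine, was higher (0.61 ± 0.094). Among 15 tested amino acid transporters 6 were lower (40%, background 11.9%) and 3 higher (20%, background 13.9%). With limma on FPKM the counts were 6 and 0. The glycine transporter SLC6A9 fell in LM2 only, from 14.8 and 16.995 to 6.70 and 6.02 CPM, and SLC7A2, a carrier of cationic amino acids, fell in MDA-MB-231 only, from 37.1 and 42.2 to 23.03 and 23.95 CPM.

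**Figure D4:**
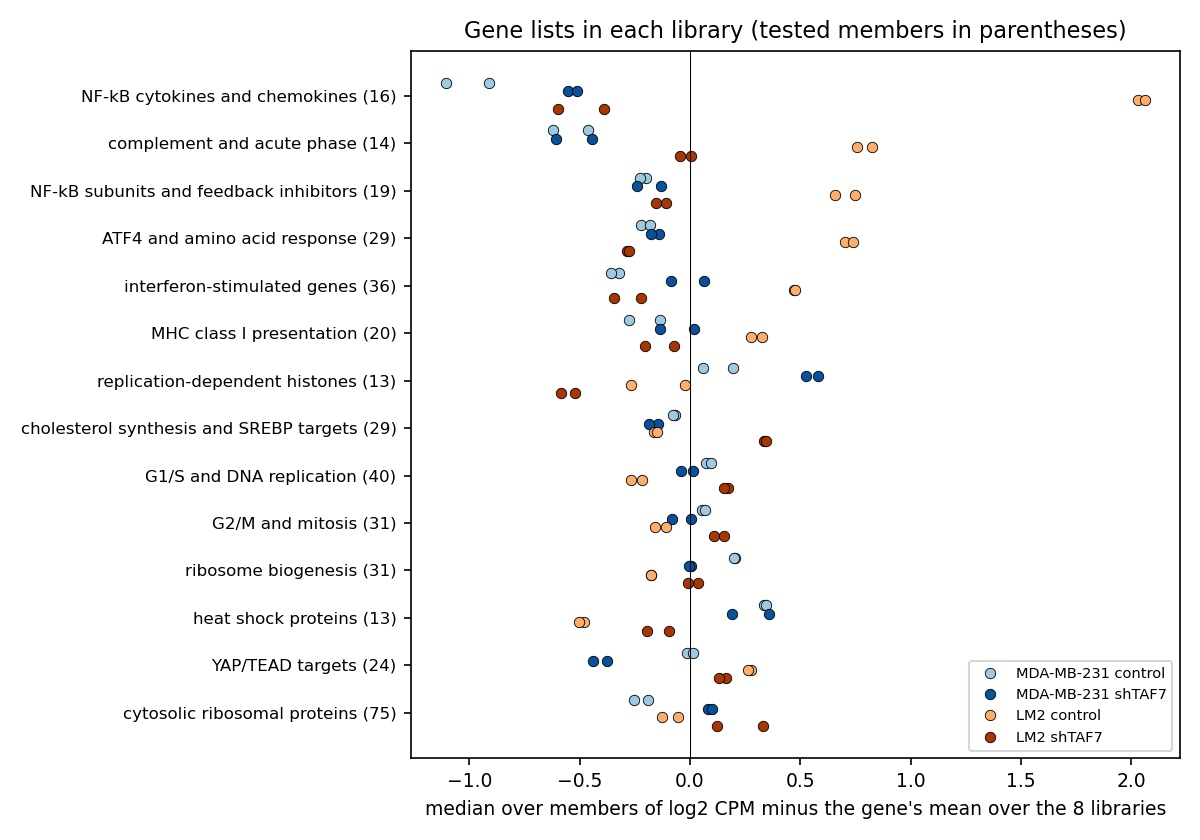
Median over the tested members of each gene list (y axis) of log2 CPM minus the gene's mean over all libraries (x axis), with 1 point per library. For the inflammatory, interferon and ATF4 lists the LM2 control points lie to the right of the other 6 libraries, and for cholesterol synthesis the 2 LM2 shTAF7 points do.

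Cholesterol synthesis was raised with knockdown in LM2 and not in MDA-MB-231. Of 29 tested genes of the pathway and its SREBP regulators, 22 had a positive interaction (background 13.9%) and 2 a negative, with a median of 0.58. In LM2 24 rose and none fell, and in MDA-MB-231 4 rose and 6 fell. With limma on FPKM 17 were called positive, 16 of them among the 22. HMGCS1, which makes HMG-CoA, had 52.05 and 51.3 CPM in the parental control, 52.2 and 47.9 with shTAF7, 40.8 and 39.5 in the LM2 control and 87.4 and 79.1 in LM2 shTAF7. IDI1, an isomerase of the isoprenoid branch, rose from 66.5 and 60.7 to 138 and 139 CPM in LM2 and had 64.8 and 64.3 and 63.7 and 59.9 CPM in the 2 MDA-MB-231 groups. In both genes LM2 shTAF7 lay above the other 6 libraries. SQLE, squalene epoxidase, crossed (-0.29 ± 0.11 and 0.68 ± 0.099). The 2 negative members were TM7SF2, a sterol reductase, at -0.86 ± 0.20 and the regulator SREBF1 at -0.55 ± 0.12, while SREBF2, the main activator of cholesterol genes, was positive at 0.55 ± 0.11. CYP51A1 had the highest value of the list (2.46 ± 0.72) but lay below 3 CPM in every library.

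Genes of S-phase entry and DNA replication were higher in LM2 as a group. Of 40 tested genes 32 had a positive interaction (80%, background 13.9%) and none a negative, with a median of 0.56 (-0.048 in MDA-MB-231 and 0.43 in LM2). In LM2 34 rose and none fell, in MDA-MB-231 12 fell and 3 rose, and 9 crossed. MCM5 (ENSG00000100297), a subunit of the replicative helicase, had 194 and 199 CPM in the parental control, 203 and 193 with shTAF7, 97.6 and 102 in the LM2 control and 189 and 208 in LM2 shTAF7. The LM2 control stood below the other 6 libraries, which overlapped. MCM4 fell from 215 and 221 to 176 and 164 CPM in MDA-MB-231 and rose from 124 and 131 to 183 and 175 CPM in LM2. UHRF1, which maintains DNA methylation at replication forks, rose in LM2 only (0.81 ± 0.067). The E2F consensus, searched as GGCGGGAA on both strands, was found in 11 of 34 matched promoters of this list, against 3.16% of all. Mitotic genes followed with 19 of 31 positive (61.3%) and 1 negative (median 0.32). ANLN, a scaffold of the cleavage furrow, fell from 637 and 638 to 512 and 493 CPM in MDA-MB-231 and rose from 347 and 343 to 557 and 513 CPM in LM2. MKI67 and TOP2A crossed as well (0.68 ± 0.11 and 0.62 ± 0.10), and HMMR, a hyaluronan receptor of the spindle, was the negative member (-0.60 ± 0.15).

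Ribosome biogenesis, heat shock and YAP targets were positive too, and reference genes moved with them. In these lists 21 of 31, 8 of 13 and 14 of 24 genes had a positive interaction (67.7%, 61.5% and 58.3%, background 13.9%), and 0, 0 and 1 a negative. The medians were 0.44, 0.46 and 0.33. Among 15 reference genes 6 were positive (40%, background 13.9%) and 1 negative (6.67%, background 11.9%). Of all genes with a mean above 41.8 CPM, 29.2% were called higher. The median of the reference genes was 0.23, so part of these medians is shared by genes often used as standards. ACTB rose in LM2 from 5078 and 4913 to 7758 and 8560.5 CPM. With limma on FPKM the reference genes' median was 0.048, those of the 3 lists 0.28, 0.35 and 0.18, and the positive calls 12, 6 and 7. For the YAP targets 9 were called positive without MDA-MB-231 control replicate 3, and also without TMM factors. UTP20, a factor of small-subunit processing, crossed (-0.45 ± 0.073 in MDA-MB-231 and 0.48 ± 0.073 in LM2). HSPA8, the constitutive HSP70, rose in LM2 from 1515 and 1565 to 2763 and 2579 CPM and fell in MDA-MB-231 from 2866 and 2884 to 2624 and 1941 CPM. ANKRD1 (ENSG00000148677), a target of YAP and TEAD factors, showed the reverse arrangement: it fell in MDA-MB-231 from 420.3 and 419 to 202 and 208 CPM, while LM2 had 886 and 817 and 809 and 880.2 CPM in its 2 groups, which overlapped. The YAP targets differed from the other positive lists in this respect, as 18 of 24 fell in MDA-MB-231 and in LM2 5 rose and 7 fell. Over all tested genes 12.9% fell in MDA-MB-231, and in LM2 21.8% rose and 19.4% fell. The negative member was GADD45A (-1.67 ± 0.11), a stress gene that is also in the p53 list.

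Genes linked to metastasis of this line were mixed. Of 22 tested genes of the lung metastasis signature, 11 had a negative (50%, background 11.9%) and 2 a positive interaction, with a median of -0.52. In LM2 10 fell and 6 rose, and without MDA-MB-231 shTAF7 replicate 2 only 7 were called negative. CXCL1 fell in LM2 from 77.9 and 78.1 to 13.7 and 12.1 CPM and had 8.84 and 7.72 and 10.96 and 10.98 CPM in the 2 MDA-MB-231 groups, and PTGS2 fell there as well. VCAM1, a leukocyte adhesion receptor, fell in LM2 from 9.30 and 7.97 to 1.005 and 1.003 CPM (-3.10 ± 0.27), and its interaction has no usable size because the MDA-MB-231 control held no count of it and shTAF7 held 2 and 1. ID1, an inhibitor of differentiation factors, was positive (0.53 ± 0.098): it rose in LM2 from 133 and 125 to 189 and 211 CPM. Among 23 matrix proteases and inhibitors 12 were negative (52.2%) and 2 positive. ADAMTS6 fell in LM2 from 50.97 and 44.4 to 19.6 and 17.3 CPM, and ADAMTS12 from 29.6 and 32.99 to 18.03 and 16.7 CPM. Among growth factors of the EGFR family AREG, amphiregulin, crossed, with a rise from 20.8 and 22.9 to 33.9 and 29.9 CPM in MDA-MB-231 and a fall from 14.1 and 11.3 to 3.80 and 4.28 CPM in LM2. LOX, which crosslinks collagen, crossed in the same way (0.55 ± 0.076 and -0.49 ± 0.069).

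Stress and survival genes outside the lists above gave mixed counts. Of 20 p53 targets 6 were negative (30%, background 11.9%) and 4 positive (20%, background 13.9%), and BBC3 (PUMA), a BH3-only activator of apoptosis, crossed from 5.41 and 6.99 to 10.1 and 9.76 CPM in MDA-MB-231 and from 14.4 and 15.3 to 8.26 and 7.92 CPM in LM2. BCL2 itself was positive, at 0.81 ± 0.19. Of 24 NRF2 targets 10 were positive (41.7%) and 5 negative (20.8%), or 4 and 5 with limma on FPKM, 5 and 5 without MDA-MB-231 control replicate 3 or without TMM factors, and 6 positive without MDA-MB-231 shTAF7 replicate 3, and the transporter gene ABCC3 fell only in LM2 (-1.59 ± 0.12). Of 24 immediate early genes 9 were negative (37.5%), among them JUN (-0.95 ± 0.099), JUNB (-0.99 ± 0.11) and KLF4 (-1.16 ± 0.12), and 4 positive, led by NR4A1. The 28 TGF-beta targets were split 6 to 6 (21.4% each way), with ID3 crossing upward in LM2 (1.04 ± 0.11). Replication-dependent histones went against the replication genes: 6 of 13 tested were negative (46.2%) and none positive. H2AC6 fell in LM2 from 9.58 and 9.03 to 4.24 and 4.59 CPM and rose in MDA-MB-231 from 13.3 and 12.1 to 16.9 and 16.4 CPM. Histone genes are close copies and most of their mRNA lacks a poly(A) tail, so the enriched libraries see only a part of it.

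In other groups the share of genes called in either direction was at or below that of all genes. Of 75 cytosolic ribosomal protein genes 60 rose in MDA-MB-231 and 64 in LM2, where 12.6% and 21.8% of all tested genes rose. Their medians were 0.32 and 0.33, and 2 had a called interaction (2.67%, background 25.8%). Neither of these 2, RPL4 and RPLP0, held its call in all fits without a library, and 0 were called with limma on FPKM. Without LM2 shTAF7 replicate 2 the calls were 12 positive, and without LM2 shTAF7 replicate 3 they were 1 positive and 6 negative, while without TMM factors 8 were negative. Of 33 genes of hypoxia and glycolysis 17 rose in the parental line and 22 in LM2. Their interaction was positive for 5 and negative for 3, which at 24.2% is near the 25.8% of all genes (2 and 6 with limma on FPKM, where the median turned from 0.080 to -0.048). The positive count was 9 or 10 without MDA-MB-231 shTAF7 replicate 2 or either LM2 shTAF7 library. Of 46 nuclear subunits of the respiratory chain 25 rose in MDA-MB-231 and 37 in LM2. The interaction was positive for 9 (19.6%) and negative for none, and the positive count was 0 with limma on FPKM. The 19.6% lies above the 13.9% of all genes called higher and below the 29.2% of genes with a mean above 41.8 CPM. The positive count fell to 2 without TMM factors and moved widely when single libraries were left out. Among the 15 other tested TFIID subunits, TAF9B (0.40 ± 0.11) and TAF6 (0.37 ± 0.11) had a called interaction, and only TAF9B held it in all 8 fits without a library. TAF1, the subunit that TAF7 binds, had an interaction of 0.028 and was not called. Of 21 general transcription factors and kinases, 2 were positive and 2 negative (0 and 3 with limma on FPKM), ERCC3 (0.41 ± 0.10) of TFIIH and CDK7 (-0.40 ± 0.10), its kinase, with opposite signs.

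Genes that moved in the same direction in both lines showed that a log2 interaction and a difference in CPM can disagree. ESM1, a secreted proteoglycan, rose from 0.364 and 0.559 to 1.92 and 2.83 CPM in MDA-MB-231 and from 51.1 and 45.5 to 73.8 and 73.1 CPM in LM2. Its fold was larger in MDA-MB-231 (-1.78 ± 0.35), but its gain in CPM was larger in LM2. NKX2-1, a lung and thyroid transcription factor, rose from 32.8 and 30.4 to 48.3 and 54.4 CPM and from 1.32 and 1.45 to 4.19 and 5.86 CPM, with a positive interaction (1.16 ± 0.25) and a larger gain in CPM in MDA-MB-231. With limma on FPKM neither ESM1 nor NKX2-1 had a called interaction. CYP1A1, a target of the aryl hydrocarbon receptor, fell from 39.6 and 38.9 to 31.1 and 29.9 CPM and from 11.01 and 9.64 to 3.35 and 3.17 CPM. Over all called genes the sign on the CPM scale was opposite in 31 (0.754%). Genes called only in the parental line by the rule were GOLGA7B (-1.49 ± 0.27), CCDC146 (-1.34 ± 0.27) and TP53INP1 (-1.28 ± 0.26), which rose there, and CYP2S1 (1.25 ± 0.24) and ARMCX4 (1.11 ± 0.25), which fell there.

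The same interaction can be read as the change in the gap between the lines, from the control hairpin to the TAF7 hairpin. These 2 gaps share all libraries with the interaction and are given side by side. LM2 and MDA-MB-231 differed in 10249 genes (64.4%) with the control hairpin and in 9952 (62.5%) with the TAF7 hairpin, with median absolute log2 differences of 0.506 and 0.475. For NF-kB cytokines the median gap was 3.15 with the control hairpin and 0.036 with the TAF7 hairpin. For NF-kB regulators it was 0.96 and 0.029, for interferon-stimulated genes 0.81 and -0.15, and for ATF4 targets 0.82 and -0.096. For complement it was 1.54 and 0.63. For cholesterol synthesis the gap opened, from -0.031 to 0.53, and for replication genes it changed sign, from -0.36 to 0.22. Single genes did not all meet: IL1B and IL6 remained far higher in LM2, while ICAM1 and CXCL8 ended lower in LM2 than in MDA-MB-231.

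**Figure D5:**
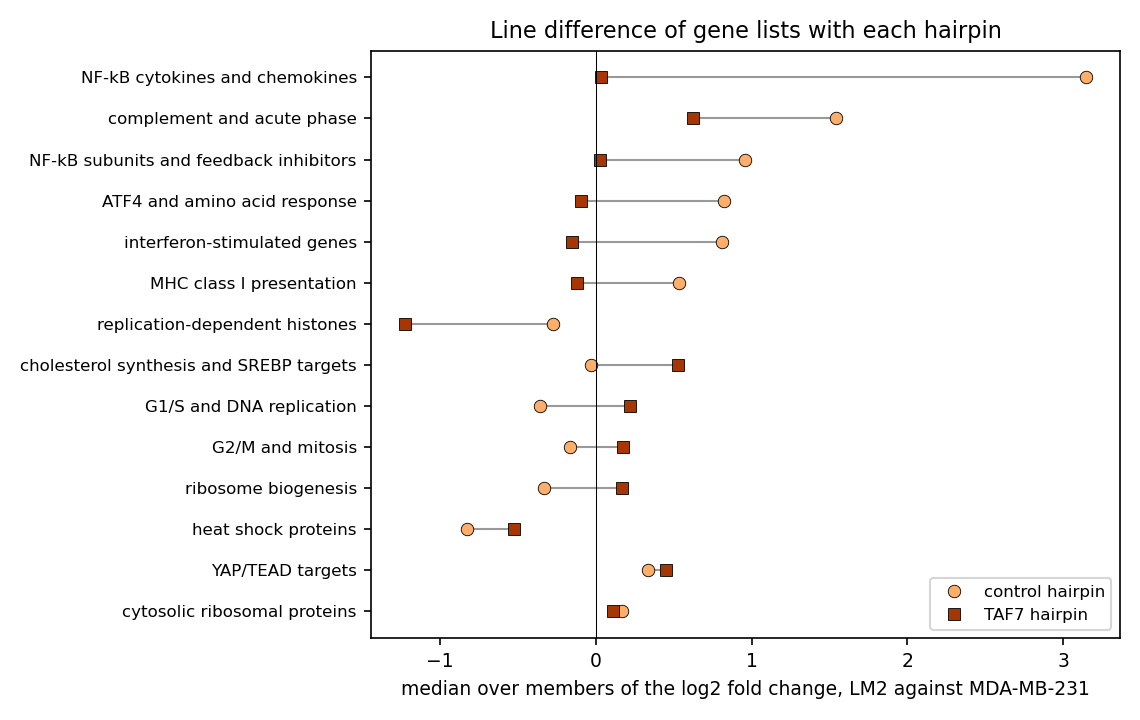
Median log2 fold change between LM2 and MDA-MB-231 (x axis) over the members of each list (y axis), with the control hairpin (circles) and the TAF7 hairpin (squares). The NF-kB cytokine median lies at 3.15 with the control hairpin and at 0.036 with the TAF7 hairpin.

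The direction of the interaction also went with the level and the type of a gene. Among the 5308 genes with the lowest mean CPM (below 5.40) 487 were lower (9.17%) and 71 higher (1.34%) in LM2, and among the 5308 with the highest (above 41.8) 541 were lower (10.2%) and 1551 higher (29.2%). The medians were -0.33 and 0.12. Backgrounds beside the gene lists are over all tested genes and do not take level into account. Among 758 lincRNA genes 74 were lower (9.76%) and 16 higher (2.11%), with a median of -0.34, and among 803 antisense genes 54 were lower (6.72%) and 10 higher (1.25%), with a median of -0.28, so that both kinds were called less often in each direction than all tested genes (11.9% lower and 13.9% higher), where reads from the partner gene cannot be told apart without a strand setting. Protein-coding genes had a median of 0.024 with 2142 higher and 1673 lower. The low-count filter works by group, so a gene read in 1 group alone can be tested. One read in the LM2 control alone has a negative interaction by construction. With the control hairpin the median gap of LM2 to MDA-MB-231 was 0.38 in the lowest-CPM genes, 0.50 in lincRNA and 0.51 in antisense genes. The counts by level and type thus rest in part on which genes pass the filter. The wider set of genes with reads in the LM2 control moves with these counts, and its part in them was not tested.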

How the data were processed

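Messenger RNA of 8 cell line samples (4 groups of 2) was measured by RNA-seq. Per the labels' protocols, libraries were made from total RNA by mRNA enrichment, fragmentation and cDNA synthesis. The deposited counts per gene are whole numbers without normalization, and the deposited FPKM values follow counts divided by gene length and library total, as judged from the values. STAR 2.7.10a and the build hg19 are named in the submitters' processing notes; the sources used here do not give the counting program, the strand setting or the annotation.

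Counts were filtered (filterByExpr), scaled with TMM and fitted with edgeR's quasi-likelihood model (edgeR 4.0.16, R 4.3.3), with 1 mean per group, all 8 libraries and 4 residual degrees of freedom. The interaction and the differences within it came from this fit, with Benjamini-Hochberg adjustment over 15923 genes and calls at an adjusted p under 0.05. The groups share 1 estimate of spread per gene, although their libraries agreed unequally. Chi-square per degree of freedom between the 2 libraries was 2.46 (MDA-MB-231 control), 8.04 (MDA-MB-231 shTAF7), 4.07 (LM2 control) and 7.48 (LM2 shTAF7). The part of this in the calls was not tested. Errors after ± are approximate standard errors, taken as the absolute log2 fold change divided by the square root of its F statistic. At low counts they can fall below counting error. CPM use library totals over tested genes times the TMM factor. FPKM were used for marker sums and for limma (3.58.1) with a pseudocount of 1. The pipeline was run on simulated counts with known interactions and the same spread for every gene and group. The libraries here were less even, so that run gives no error rate for these calls.

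The 36 gene lists and the part of the data described were chosen with earlier results of these data known, so list counts and medians are descriptions beside those of all genes. Several genes stand in more than 1 list, and list members of older name were matched through RefSeq synonyms. The rule for named genes took TAF7; the 8 highest and 8 lowest interactions with a mean of at least 5 CPM, a call in all 8 fits that leave out 1 library and 1 sign in all 16 combinations of libraries; 3 per pattern of changes; and up to 4 called members per list with the strongest of opposite sign. Genes named outside it (CXCL8, LIF, RELA, RELB, REL, NFKB1, NFKB2, NFKBIA, BIRC3, CXCL2, CXCL3, CCL20, CD46, CD55, CD59, STAT2, IRF1, IRF7, IRF9, IFIT1, IFIT3, IFIT5, ISG15, ATF4, SLC7A11, SREBF1, SREBF2, TAF1) were chosen after their values were seen. Promoter windows came from RefSeq (GRCh38.p14) by symbol.

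Alternatives were RLE factors, DESeq2 1.42.0, each library left out, no filter, a block for the replicate number, limma on FPKM, a minimum interaction of 1, gene length offsets, the CPM scale and, chosen after seeing the data, GC content with length offsets (5 spline degrees of freedom) and edgeR without TMM factors.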

Additional observations from a re-analysis of the deposited data

Results flagged for a closer look

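Each interaction tests whether the lines differ in their response, and 5 results are listed for that difference. The knockdown change was higher in LM2 than in MDA-MB-231 for 2221 genes and lower for 1892 (edgeR, adjusted p under 0.05). Of these, 305 genes rose in MDA-MB-231 and fell in LM2, and 313 fell in MDA-MB-231 and rose in LM2. TAF7 itself had an interaction of 0.34, that is a smaller loss in LM2. The genes with the largest interactions are given with their values in the report. Groups of 2 libraries allow no check for a single outlying sample.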

How the results depend on the processing

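RLE factors gave 2339 higher and 1842 lower genes, DESeq2 1899 and 1283, no low-count filter 2189 and 1603 of 32881, length offsets 2305 and 2009, and GC content with length offsets 2405 and 2091. Larger shifts came from edgeR without TMM factors (1297 higher; 184 genes down in MDA-MB-231 and up in LM2), which moved the median of all genes to -0.12, from limma on FPKM (998 higher; 126 genes down in MDA-MB-231 and up in LM2), from DESeq2 (171 up in MDA-MB-231 and down in LM2) and from the minimum interaction of 1 (6 higher, 110 lower, 67 and 5 crossed in that order), where the stricter null by itself removes small interactions; the cause of the limma and DESeq2 shifts was not tested. Leaving out each library in turn, which assumes that the lone library of its group varies like the other groups, gave 1556 to 2458 higher and 1377 to 1756 lower genes. The class up in MDA-MB-231 and down in LM2 then held 149 to 278 genes (149 without MDA-MB-231 control replicate 2, 159 without control replicate 3, 189 without MDA-MB-231 shTAF7 replicate 3), and the opposite class 141 to 399 (141, 143 and 144 without the same libraries).

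The numbers 2 and 3 did not pair the libraries: the differences between numbers correlated across 9282 genes at -0.18 to 0.087 between groups. With the replicate block the counts were 2220 higher and 1908 lower, with 311 and 303 crossed genes, and 1 of 154 named genes lost its call.

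Of the 154 named genes (152 with a result in DESeq2) none changed sign in the fits named above. Calls were lost for 9 with DESeq2, 24 with limma on FPKM, 11 without TMM factors, 121 with the minimum interaction and 7 to 16 without a library. On the CPM scale 4 differences had the opposite sign: ESM1 23.2, NKX2-1 -16.1, CYP1A1 1.72 and DUSP1 -4.64 CPM. The median of the 5 tested hormone receptor and HER2 markers, 0.24, ranged from -0.47 to 0.34 without a library (-0.084 without LM2 control replicate 3). Medians near 0 for hypoxia, ribosomal protein, ER chaperone, p53, BCL2 family, mesenchymal, TFIID and general factor genes turned negative with limma on FPKM, which moved the median of all genes to -0.060, and without TMM factors, as did that of TGF-beta targets without TMM factors only. The few calls among TFIID and general factor genes moved with single libraries too, to 5 positive and 1 negative without LM2 shTAF7 replicate 3 and to 6 and 3 without LM2 shTAF7 replicate 2.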
